A study of Rattus norvegicus with 64 samples.

Results

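Livers of rats given acetaminophen were compared between 10 h and 5 h after the dose, which follows the messenger RNA response to a high dose over time within treated animals. The members are the liver libraries labelled with acetaminophen: 8 collected at 10 h and 8 collected at 5 h, or 16 of the 64 libraries of the series. Each treated Sprague Dawley rat had received 1 dose of 2 g/kg acetaminophen. Vehicle livers, again 8 at 10 h and 8 at 5 h, came from rats given 50% polyethylene glycol at 6 ml/kg and show what differed between the same times without the drug. Kidneys of the 16 treated rats were compared between the same times, and the 16 kidneys of vehicle rats, 8 at 10 h and 8 at 5 h, entered the kidney fit and served to define transcript sets. Every library came from 1 rat, and the sex, the age, the feeding state and the clock time of dosing are not given in the sources used here.

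Acetaminophen is an analgesic that is safe at low doses and injures the liver in overdose. Cytochrome P450 enzymes of hepatocytes turn part of it into a reactive quinone imine, which glutathione captures until its store is used up; the remainder then binds to proteins, many of them in mitochondria. In rodents this is known to be followed over hours by oxidative and metabolic stress responses, and rats are known to be less sensitive than mice. Liver transcripts are also known for strong daily rhythms, so livers taken hours apart can differ without any drug.

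The features are transcripts with Ensembl identifiers. The files do not pair them with gene symbols, and 0 of the 28420 identifiers occur in the reference table used here, so no gene, pathway or cell type list could be read and no sequence is shown. The changes are described by transcript sets that were defined on vehicle animals and by 4 identifiers, 2 that rose and 2 that fell.

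The treated livers held between 23153904 and 28516153 estimated counts per library (reads assigned to transcripts by the authors' software), with a mean of 25242480 at 10 h and 24977518 at 5 h. Transcripts at 1 TPM or more (a level scaled to transcript length and library total) numbered 11101 ± 451 at 10 h and 11163 ± 430 at 5 h (SD, n = 8 each; exact permutation test, two-sided, p = 0.782, adjusted p = 0.782 over 4 library measures). The 433 transcripts that were at least 16 times more abundant in vehicle liver than in vehicle kidney held 45.7% to 51.2% of the counts at 10 h and 48.9% to 51.4% at 5 h. The 1764 transcripts enriched to the same degree in kidney held 0.254% to 0.429% at 10 h and 0.249% to 0.29% at 5 h. In all 16 libraries the liver set thus outweighed the kidney set, as the tissue label says.

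Replicate 8 of the 10 h group stood apart from the other treated livers. On the first principal component of log2 CPM (estimated counts scaled to the library total), which carried 21.8% of the variance, it lay at 105.5, and 5 h replicates 6 and 7 followed at 68.3 and 43.9. The other 13 libraries lay between -49.2 and 25.5. The same 3 libraries were poorer in long transcripts, with slopes of log2 CPM on log2 transcript length of -0.198, -0.087 and -0.097, against -0.041 to 0.062 in the others. The second component, with 11.8% of the variance, separated the times: the 10 h livers lay between -1.2 and 40.8 and the 5 h livers between -45.6 and -1.6, and the groups met at 10 h replicate 8 and 5 h replicate 4. Results are therefore also given without these 3 libraries, which carry the numbers 28, 29 and 32, and library 30, which is vehicle 5 h replicate 6 with a slope of -0.132.

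**Figure D1:**
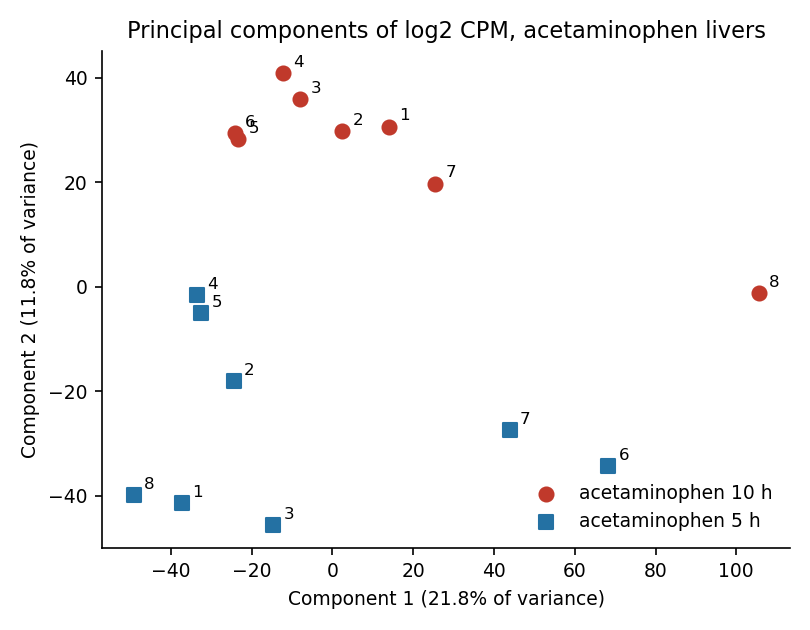
Principal components of log2 CPM over 14943 transcripts in the 16 acetaminophen livers, with the share of variance on each axis; each point is 1 library, labelled by its replicate number. The times separate along the second component, while 10 h replicate 8 and 5 h replicates 6 and 7 lie at the right of the first.

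Between 5 h and 10 h after acetaminophen, 1044 liver transcripts rose and 705 fell. Together they are 1749 of 14943 transcripts tested, or 11.7%, called at an adjusted p under 0.05 by edgeR's quasi-likelihood test; 6.99% rose and 4.72% fell. The rises had a median log2 change of 0.54 (quartiles 0.39 and 0.83) and the falls one of -0.65 (quartiles -1.01 and -0.45), with median standard errors of 0.13 and 0.17 for a single transcript. Over all transcripts tested the median was -0.02.

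Most changes were modest in size. A log2 change of at least 1 was reached by 197 rises and 182 falls, one of at least 2 by 44 and 26, and one of at least 3 by 16 and 12. Among called transcripts, changes past 4.28 or -4.39 were found only in those with a mean log2 CPM under 1, where few reads stand behind the value. For 208 of the rises the lowest of the 8 livers at 10 h was above the highest of the 8 at 5 h, and for 79 of the falls the reverse held. Over all transcripts tested, 295 or 1.97% were apart in this way, 213 higher (1.43%) and 82 lower (0.549%) at 10 h. No transcript reached 1 TPM in all 8 livers of one time while staying under 0.5 TPM in all 8 of the other, in either direction.

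**Figure D2:**
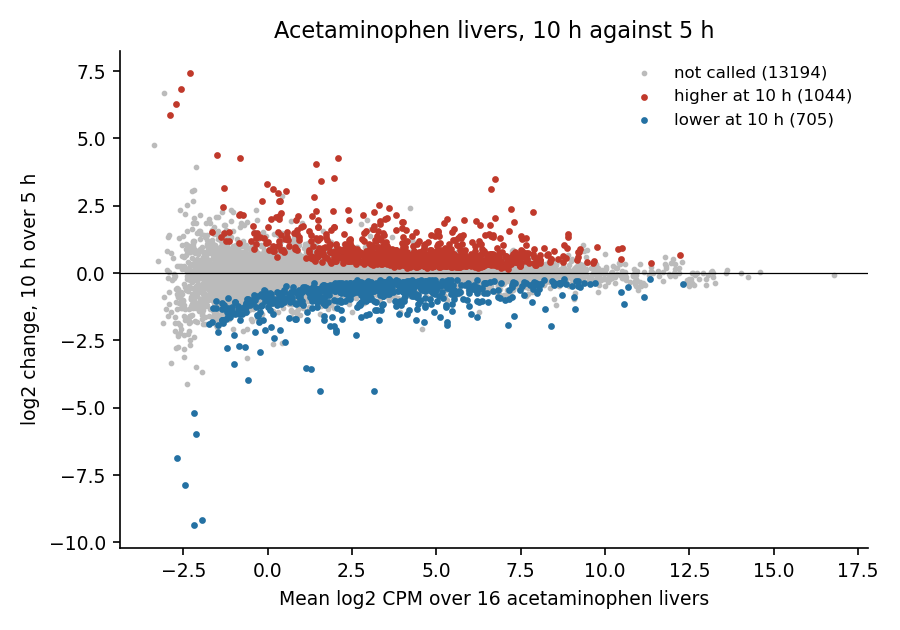
log2 change at 10 h over 5 h (vertical axis) against mean log2 CPM over the 16 acetaminophen livers (horizontal axis); each point is 1 of 14943 transcripts. Red points are the 1044 called higher, blue points the 705 called lower at 10 h, and the extreme values sit at the low end of abundance.

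By the count test 59.7% of the calls were rises. By DESeq2 57.6% and by limma voom 61.2% were rises. On the deposited TPM, where a library always sums to the same total, 82.2% of the 1868 calls were rises (limma on log2(TPM + 1)) and the median over all transcripts was 0.04. The balance between rises and falls thus depends on the processing. The TPM fit changed the scale and the test and had no further scaling between libraries, so the part of each was not tested. Fitted without libraries 28, 29, 30 and 32, the test called 1425 rises and 1066 falls. With the slope on transcript length as a covariate, added after the data were seen, it called 1415 and 923.

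The transcripts called as rises held 7.62% to 8.65% of the counts in the 10 h livers (median 8.15%) and 4.58% to 5.66% in the 5 h livers (median 5.27%). In vehicle livers the same transcripts held 6.2% to 7.14% at 10 h and 5.97% to 7.1% at 5 h, which lies between the treated groups. Those called as falls held 3.03% to 3.75% at 10 h and 4.74% to 5.36% at 5 h with acetaminophen, and 4.14% to 5.06% at 10 h and 3.55% to 5.42% at 5 h with vehicle. The treated ranges do not overlap because the calls chose the transcripts for that, so these shares are a description.

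Against vehicle livers of the same time, the rises had a median log2 change of 0.31 at 10 h and -0.21 at 5 h, and the falls one of -0.27 at 10 h and 0.27 at 5 h. These comparisons share the treated libraries with the one that chose the transcripts, so they too are given only side by side. The median of all transcripts tested was 0.02 at 10 h and 0.03 at 5 h.

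The largest rise among well measured transcripts was that of ENSRNOT00000057897, a transcript of 11622 bases. It lay between 7.47 and 35.1 CPM in the 10 h livers (median 20.8) and between 0.474 and 1.68 CPM in the 5 h livers (median 0.76). The lowest 10 h liver was thus above the highest 5 h liver. Vehicle livers held 1.45 to 7.86 CPM at 10 h (median 3.71) and 0.468 to 5.5 CPM at 5 h (median 3.42), so all 8 treated livers lay below 7 of the 8 vehicle livers at 5 h, and all but 1 lay above every vehicle liver at 10 h. The log2 change in treated livers was 4.28 ± 0.38 (SE; edgeR adjusted p = 3.91e-09), and on log2(TPM + 1) it was 1.15, since this scale understates changes of scarce transcripts. It exceeded the vehicle change of 0.44 ± 0.34 by 3.84 ± 0.49 (SE; edgeR adjusted p = 1.21e-05). In kidneys of treated rats the same transcript had 11.9 ± 3.91 CPM at 10 h and 6.33 ± 1.0 CPM at 5 h (SD, n = 8 each). The kidney log2 change was 0.88 ± 0.21 (SE), with an edgeR adjusted p of 0.0233.

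The rise that added the most reads was that of ENSRNOT00000009813. Its 10 h livers lay between 3928 and 8641 CPM (median 6178) and its 5 h livers between 2633 and 5013 CPM (median 3885). The groups overlapped, and 6 of the 8 livers at 10 h exceeded every liver at 5 h. Vehicle livers held 3755 ± 1064 CPM at 10 h and 4279 ± 745 CPM at 5 h (SD, n = 8 each). The log2 change with acetaminophen was 0.68 ± 0.17 (SE; edgeR adjusted p = 0.00737). It was larger than the vehicle change by 0.83 ± 0.24 (SE; edgeR adjusted p = 0.039), but this difference lost its call, with adjusted p from 0.0504 to 0.0846, without a filter, with the library total as a covariate, without the libraries numbered 65 to 68, and without any single one of 14 livers. Those were acetaminophen 10 h replicates 1, 2 and 3 and 5 h replicates 1, 3, 5 and 8, and vehicle 10 h replicates 1, 2, 4, 5 and 6 and 5 h replicates 2 and 3.

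The largest fall under the same limit on mean log2 CPM was shared by treated and vehicle livers. ENSRNOT00000046313 lay between 0 and 2.84 CPM in the 10 h acetaminophen livers (median 0.75) and between 6.94 and 32.2 CPM in the 5 h acetaminophen livers (median 13.8), with no overlap. In 2 of the 10 h livers it had no count. Vehicle livers showed the same order, with 0.516 ± 0.529 CPM at 10 h and 9.43 ± 6.6 CPM at 5 h (SD, n = 8 each). The log2 change was -4.39 ± 0.65 with acetaminophen and -4.12 ± 0.66 with vehicle (SE; edgeR adjusted p = 2.13e-05 and 0.000299). The changes differed by -0.27 ± 0.88 (SE; edgeR adjusted p = 0.911), an error too wide to show that they were alike. In treated kidneys it had 3.32 ± 1.35 CPM at 10 h and 11.2 ± 5.85 CPM at 5 h (SD, n = 8 each). The kidney log2 change was -1.8 ± 0.40 (SE), with an edgeR adjusted p of 0.0149.

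The fall that removed the most reads was small. ENSRNOT00000019969 lay between 2854 and 5982 CPM in the 10 h acetaminophen livers (median 4913) and between 4496 and 7726 CPM in the 5 h acetaminophen livers (median 5889), and the ranges overlapped widely. Vehicle livers held 6476 ± 632 CPM at 10 h and 6051 ± 1177 CPM at 5 h (SD, n = 8 each). The log2 change of -0.40 ± 0.14 (SE; edgeR adjusted p = 0.0482) is a borderline call. It was lost, with adjusted p from 0.0503 to 0.133, in 16 of 27 alternatives, among them both TPM scales and the fits without 10 h acetaminophen replicate 2, 6, 7 or 8 or 5 h acetaminophen replicate 1, 2, 3, 4, 5 or 8. The test against the vehicle change did not pass (difference -0.55 ± 0.19, SE; edgeR adjusted p = 0.0856). It passed in 3 of 42 alternatives, with an adjusted p of 0.0441 by DESeq2, 0.0358 by limma voom and 0.0472 by edgeR without 10 h acetaminophen replicate 1, and ranged up to 0.259 in the others.

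**Figure D3:**
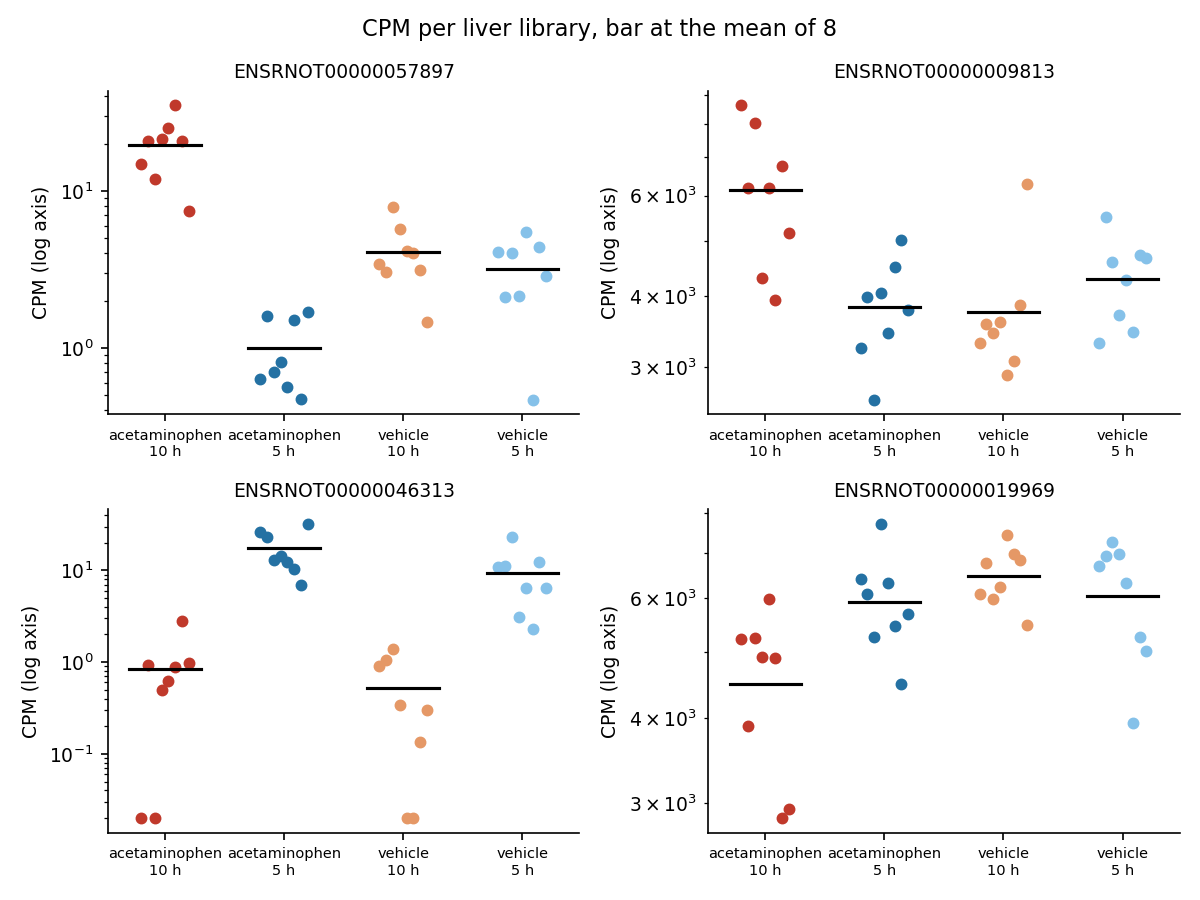
CPM of the 4 named transcripts in each of the 32 liver libraries on log axes, by group; points are libraries, black bars the mean of 8, and libraries under 0.02 CPM are drawn at 0.02. ENSRNOT00000046313 is lower at 10 h with either agent, whereas ENSRNOT00000057897 is higher at 10 h in acetaminophen livers.

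A small number of abundant transcripts carried much of the difference in reads. Summed over the rises, the mean CPM was higher by 30040 at 10 h, and 46 of the 1044 transcripts made up 50% of it; the 10 largest held 26.3%. The falls summed to -16782 CPM, with 15 of 705 transcripts making up 50% and the 10 largest holding 44.3%. Where the mean log2 CPM was at least 1, the 20 largest rises had log2 changes of 2.03 to 4.28. In 14 of these 20 every 10 h liver exceeded every 5 h liver, beside 1.43% of all transcripts tested. The 20 largest falls had log2 changes of -1.63 to -4.39, and in 10 of them every 10 h liver was below every 5 h liver, beside 0.549%. Both sets were picked for large changes between these same livers, which favours such separation, so the counts are a description.

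Vehicle livers were used to see how much of the change over the interval occurred without acetaminophen. The vehicle comparison shares no library with the treated one, but both were read from 1 fit of the 32 livers. That fit used 1 filter and 1 estimate of the spread per transcript, so the lists of calls are not fully independent. Of the 14943 transcripts, 487 or 3.26% were called with vehicle, 197 higher (1.32%) and 290 lower (1.94%) at 10 h. This count was sensitive to single livers and fell to 312 without 5 h vehicle replicate 2 and to 307 without 10 h vehicle replicate 5. It was 789 without libraries 28, 29, 30 and 32.

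Part of the vehicle list was called in treated livers too. Of the 197 that were higher at 10 h with vehicle, 62 also rose with acetaminophen, or 31.5% against 6.99% of all transcripts tested, and 2 fell. Of the 290 that were lower with vehicle, 57 also fell with acetaminophen, or 19.7% against 4.72%, and 22 rose. The 62 shared rises are 5.94% of the rises with acetaminophen, and the 57 shared falls are 8.09% of the falls. The 62 had a median log2 change of 0.63 with acetaminophen and 0.66 with vehicle, and the 57 one of -0.81 and -0.85. Both sets were kept for calls in the same direction, which favours like changes, so these medians are a description. All 197 had a median of 0.24 with acetaminophen and 0.75 with vehicle, and all 290 one of -0.11 and -0.59. The vehicle medians of these lists are enlarged by the choice on vehicle calls. Without libraries 28, 29, 30 and 32 the shared rises numbered 127 and the shared falls 103.

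The 22 transcripts that rose with acetaminophen are 7.59% of the 290 that were lower with vehicle, near the 6.99% that rose among all transcripts tested. Their median log2 change was 0.51 with acetaminophen and -0.47 with vehicle. All 22 passed the test of the difference between the agents, which their choice by opposite calls in the same fit largely fixes. The number of such transcripts varied with the method, from 8 with the library total as a covariate to 110 on log2(TPM + 1).

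Whether the change over time differed between the agents was tested directly for every transcript. The difference was called for 829 transcripts (5.55%), of which 563 (3.77%) had the higher and 266 (1.78%) the lower change in acetaminophen livers. Among the 1044 rises with acetaminophen, 398 passed this test, all with a change above that of vehicle livers. Among the 705 falls 167 passed, 166 of them with a change below that of vehicle. These tests share the treated livers with the time comparison. For 588 rises and 484 falls neither the vehicle change nor the difference passed, so their change was not shown to differ from that of vehicle livers. Of the 62 rises and 57 falls shared with vehicle, 4 and 3 passed the test of the difference. The others of these were not shown to differ from vehicle either.

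Where the difference was called and the vehicle change was not, the levels of the 4 groups can be set side by side. The 372 such rises had a median log2 CPM of 5.0 at 10 h and 4.45 at 5 h with acetaminophen, and 4.6 at 10 h and 4.74 at 5 h with vehicle. The 162 such falls had a median of 2.83 at 10 h and 3.68 at 5 h with acetaminophen, and 3.39 at 10 h and 3.18 at 5 h with vehicle. In both sets the vehicle medians lay between the treated ones, which the choice of transcripts by these same tests largely fixes, so the levels are a description.

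**Figure D4:**
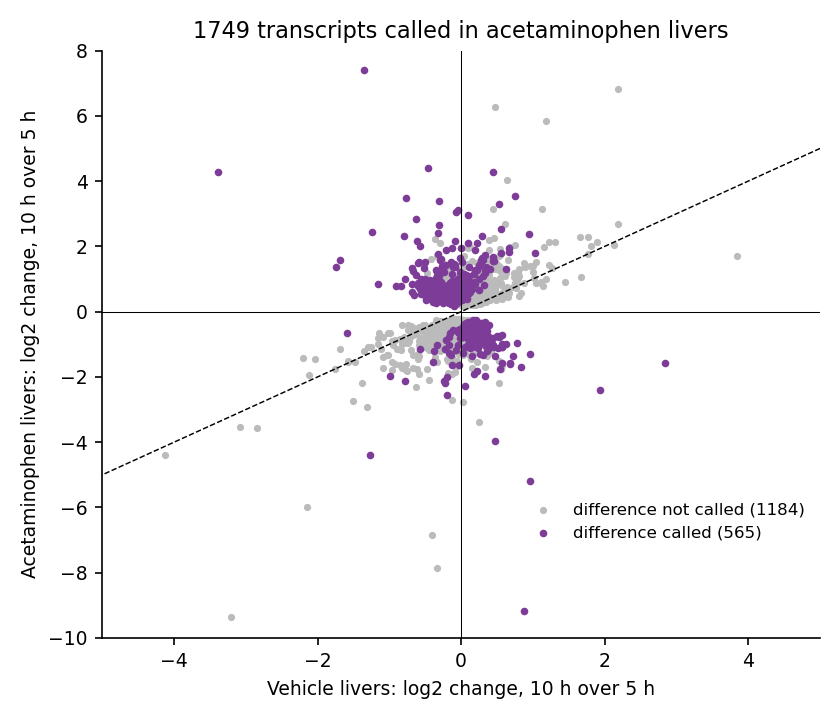
log2 change at 10 h over 5 h in acetaminophen livers (vertical axis) against that in vehicle livers (horizontal axis) for the 1749 transcripts called in acetaminophen livers; the dashed line marks equal changes. Purple points are the 565 for which the difference between the agents was called, and they lie away from that line.

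Transcript sets defined on vehicle libraries described where in the liver transcriptome the calls fell. Liver-enriched transcripts are those at 1 TPM or more in vehicle liver and at least 16 times their level in vehicle kidney. Of 424 tested 47 fell, or 11.1% against 4.72%, and 30 rose, or 7.08% against 6.99%. Their median log2 change was -0.07, against -0.02 over all transcripts. With vehicle, 7 of the same 424 were lower and 10 were higher at 10 h, beside 1.94% and 1.32% of all transcripts, and their median was 0.07. The difference between the agents was called as more negative with acetaminophen for 22 and as more positive for 12, where 1.78% and 3.77% of all transcripts were called. The set rests on a liver to kidney ratio, since no cell type list could be read. In bulk liver, fewer cells of a type and less of these transcripts per cell cannot be told apart, and neither was tested. On log2(TPM + 1) 6.37% of them fell, against 2.22% of all transcripts, and on log2(TPM + 0.1) 6.37%, against 2.07%. Without libraries 28, 29, 30 and 32 the set stood closer to the rest, with 10.6% falling against 7.05% of all transcripts. With a liver to kidney ratio of at least 4 in place of 16, 65 of 707 tested fell (9.19%) and 60 rose (8.49%).

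The summed level of the set was also read per library. Liver-enriched transcripts held 49.7% to 53.5% of all TPM in the 10 h acetaminophen livers (median 51.7%) and 51.7% to 60% in the 5 h acetaminophen livers (median 55.6%). Vehicle livers held 53.4% to 58.2% at 10 h (median 57.1%) and 48.1% to 57.3% at 5 h (median 55.6%). The treated ranges overlapped between 51.7% and 53.5%.

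Transcripts at similar levels in both organs were counted in the same way. Of 3904 tested that differed by at most 2 times between vehicle liver and kidney, 425 rose, or 10.9% against 6.99% of all transcripts, and 146 fell, or 3.74% against 4.72%, with a median log2 change of 0.05. They made up 40.7% of all rises and 20.7% of all falls. With vehicle 75 of the 3904 were higher and 88 lower at 10 h, beside 1.32% and 1.94% of all transcripts tested. The difference between the agents was called as more positive with acetaminophen for 223 and as more negative for 70, beside 3.77% and 1.78% of all transcripts.

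The share of calls was also counted by level, beside 6.99% rising and 4.72% falling among all transcripts tested. Of 3504 transcripts at 10 to 100 TPM in vehicle liver, 486 rose (13.9%) and 126 fell (3.6%). Of 808 at 100 TPM or more, 48 rose (5.94%) and 54 fell (6.68%), while the 200 transcripts with the highest TPM had 7 rises and 11 falls (3.5% and 5.5%). Without libraries 28, 29, 30 and 32, 7.5% of these 200 rose, against 9.43% of all transcripts. Of 7041 at 1 to 10 TPM, 443 rose (6.29%) and 369 fell (5.24%). Under 1 TPM, 67 of 3590 tested rose (1.87%) and 156 fell (4.35%), with 16908 such transcripts in the files, most of them under the filter.

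The sets were also compared within classes of like abundance. At 100 TPM or more, 25 of 200 liver-enriched transcripts fell (12.5%), against 13 of 325 shared ones (4.0%). At 10 to 100 TPM the shares that fell were 8.89% of 135 and 3.38% of 1655, and at 1 to 10 TPM they were 11.2% of 89 and 4.0% of 1924. For rises, liver-enriched and shared transcripts stood at 5.0% and 6.15% in the highest class, 10.4% and 15.2% in the middle class and 6.74% and 7.95% in the lowest. Of transcripts in neither set, 5.65% of 283 fell in the highest class, 3.38% of 1714 in the middle and 5.61% of 5028 in the lowest. The shares of these that rose were 6.36%, 12.8% and 5.65%.

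**Figure D5:**
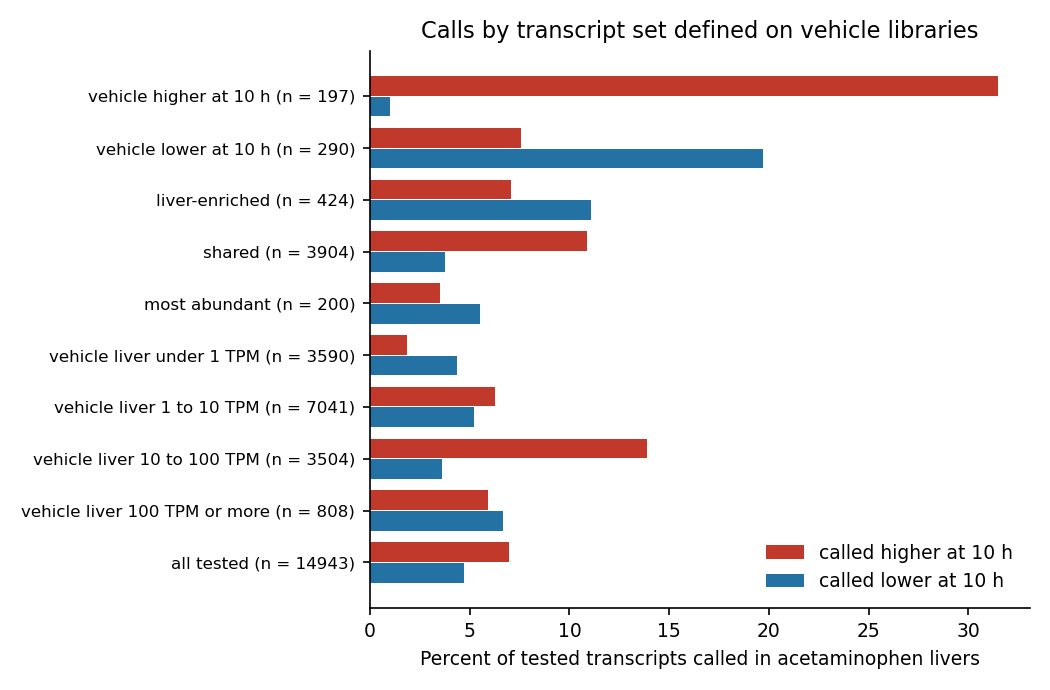
Percent of the tested transcripts of each set that were called higher (red) or lower (blue) at 10 h in acetaminophen livers; sets were defined on vehicle libraries and the lowest pair of bars is all 14943 transcripts. Falls are 11.1% of liver-enriched and 3.74% of shared transcripts, against 4.72% of all.

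Kidneys of the treated rats were compared over the same interval. Of 17284 kidney transcripts tested 336 or 1.94% were called, 152 higher (0.879%) and 184 lower (1.06%) at 10 h. On the treated kidneys alone 109 were called and by DESeq2 615, and there were 215, 171 or 171 calls without 10 h replicate 2, 4 or 7 and 215 without 5 h replicate 4. There were 395 calls without 5 h replicate 3, 292 without 5 h replicate 8 and 463 without kidney libraries 44 and 56. Library 44 is 5 h acetaminophen replicate 3, and library 56 is 10 h acetaminophen replicate 6. Of the 1025 liver rises tested in both organs 26 rose in kidney (2.54%, against 0.741% of the 14432 transcripts tested in both) and 11 fell (1.07%, against 1.06%). Of the 675 liver falls tested in both 30 fell in kidney (4.44%, against 1.06%) and 3 rose (0.444%, against 0.741%). The 26 shared rises had a median log2 change of 0.79 in liver and 0.50 in kidney, and the 30 shared falls one of -0.94 and -0.68. Their choice by calls in both organs fixes the direction, so these medians are a description. Over the whole lists, the kidney change was above 0 for 50.0% of the 1025 liver rises and 29.8% of the 675 liver falls. Among all 14432 transcripts tested in both organs it was above 0 for 45.4%. In vehicle liver 3 of the 26 were called higher and 3 of the 30 lower, beside 1.32% and 1.94% of all liver transcripts tested. Both organs came from the same rats, which the labels do not match, so the lists are not independent. In treated kidneys at 5 h, ENSRNOT00000009813 and ENSRNOT00000019969 had medians of 1.19 and 0.294 CPM. Replicate 3 held 15.6 and 12.2 CPM of them, and replicate 8 held 55.5 and 67.4 CPM. Their kidney log2 changes of -2.27 ± 0.78 and -3.44 ± 1.2 (SE) were not called (edgeR adjusted p = 0.138 and 0.163). No fit left out 5 h replicates 3 and 8 together, and the part of such liver transcripts in the shared falls was not tested.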

How the data were processed

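Per the labels' protocols, poly-A libraries were made with a stranded kit and sequenced as 75-bp single reads. Their extraction text mentions culture cells, although each sample is labelled as an organ. For each library the authors deposited estimated counts, lengths and TPM of 28420 transcripts. Per the submitters' processing notes the tool was kallisto 0.42.4 and the build Rnor 6.0. Per the file headers, estimated counts are unscaled, whereas deposited TPM are scaled by length and library. Reads that match several transcripts are divided by a model, so a change of 1 transcript can come from reads moving between related ones; 26.6% of the values were not whole (tolerance 1e-06).

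Groups follow the agent, tissue and time labels, and replicates are numbered in accession order. Rounded estimated counts went into edgeR 4.0.16 (R 4.3.3) with these settings (filterByExpr, TMM scaling, quasi-likelihood test, two-sided, Benjamini-Hochberg over all transcripts tested, called at 0.05) in 1 fit of the 32 libraries of a tissue with 4 groups. A standard error was taken as the size of the log2 change over the root of its F statistic, and CPM scale estimated counts to the library total. The closest pair of treated livers of a group differed by a chi-square of 25.4 per degree of freedom, so no library was counted as a copy. Sets use mean TPM over 16 vehicle livers and 16 vehicle kidneys, with 0.01 added to ratios.

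The 4 identifiers are the largest rise and fall of the called transcripts whose log2 CPM averaged at least 1 over the treated livers, and the called rise and fall with the largest difference in mean CPM. The sets, lists and tests were chosen with earlier results of these data known. The 28 gene and marker lists could not be run without symbols. On simulated counts with 14943 transcripts for the treated liver comparison, the test recovered 35.8% of 1.5-fold, 68.7% of 2-fold and 90.9% of 4-fold changes, with 4 false calls among 134. Only 67, 67 and 66 transcripts were changed at these folds. Counts were drawn independently, without library differences such as those on the first principal component, so these rates need not hold for the real libraries. As alternatives, the test was run without a filter, with DESeq2's size factors, as DESeq2 1.42.0, as limma voom with library weights (limma 3.58.1), as limma on log2(TPM + 0.1) or log2(TPM + 1), on only the groups compared, with the library total as a covariate, without libraries 65 to 68, without libraries 28, 29, 30 and 32, and without single libraries. Libraries 28, 29 and 32 are 10 h acetaminophen replicate 8 and 5 h acetaminophen replicates 6 and 7, and library 65 is 5 h acetaminophen replicate 8. The length slope as a covariate, the fits without single vehicle livers or treated kidneys, and the fit without kidney libraries 44 and 56 were added after the data were seen.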

Additional observations from a re-analysis of the deposited data

Results flagged for a closer look

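The change over the interval differed between acetaminophen and vehicle livers for 829 transcripts by edgeR, and among the named ones for ENSRNOT00000057897 (difference 3.84 on the log2 scale, edgeR adjusted p = 1.21e-05) and ENSRNOT00000009813 (difference 0.83, edgeR adjusted p = 0.039).

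Of 36 groups of 8 values examined, 10 held a value far from the rest, where chance gives about 1 in 20. Acetaminophen 10 h replicate 8 deviated from the mean of its group by an SD of 1.033 on the log2 scale and had a length slope of -0.198. Acetaminophen 10 h replicate 1 held 25.9% of its counts in its 10 most abundant transcripts. Acetaminophen 10 h replicate 7 had 2.84 CPM of ENSRNOT00000046313, still under the lowest 5 h liver at 6.94 CPM. Vehicle 5 h replicate 6 (library 30) stood apart in 4 measures: 10350 transcripts at 1 TPM or more, 28.3% of its counts in the 10 most abundant, an SD of 1.064 from its group, and a length slope of -0.132. Vehicle 10 h replicate 8 had 6280 CPM of ENSRNOT00000009813, and vehicle 10 h replicate 2 had a length slope of 0.043. The part of these libraries in the counts of calls was not tested beyond the fits without them.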

How the results depend on the processing

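The livers of the groups came from different rats, so the comparison is unpaired. The labels give no replicate numbers that the groups share. The count of transcripts called between 10 h and 5 h in acetaminophen livers stayed within 1.5 times its value of 1749 in all 11 alternatives and in the 16 fits without 1 treated liver (1387 to 1867); it was lowest on the treated livers alone (1184) and highest without libraries 28, 29, 30 and 32 (2491, of which 1601 were among the 1749). The vehicle count of 487 was 833 by DESeq2, 914 on log2(TPM + 1), 815 on log2(TPM + 0.1), 1671 by limma voom, 740 on the vehicle livers alone, 292 with the library total as a covariate, 789 without libraries 28, 29, 30 and 32, 934 with the length slope as a covariate, and 307 to 596 without single livers. The count of 829 for the difference between the agents was 1849 on log2(TPM + 1), 1822 on log2(TPM + 0.1) and 1258 by limma voom, and 622 to 985 without single livers; on log2(TPM + 1) 93.7% of the calls were more positive with acetaminophen, against 67.9%, with the median of all transcripts at 0.125. The kidney count of 336 was 615 by DESeq2, 220 on log2(TPM + 1), 218 on log2(TPM + 0.1), 560 by limma voom, 109 on the treated kidneys alone and 171 to 504 without single kidneys; 68.6% of the calls on log2(TPM + 1) were higher at 10 h, against 45.2%. The uncalled difference for ENSRNOT00000046313 changed sign by limma voom (0.32) and without 10 h vehicle replicate 3 (0.14), with a range of -0.82 to 0.14 without single livers. The called change of ENSRNOT00000057897 and that of ENSRNOT00000046313 in acetaminophen livers kept their direction and their call in all 27 alternatives. Transcripts called higher in both agents numbered 47 to 201, and those called lower in both 47 to 122; both were highest by limma voom. The causes of these shifts were not tested. With 8 livers a group and a median standard error of 0.19 on the log2 scale, small changes of scarce transcripts were not detectable.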

Other observations

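The calls in acetaminophen livers were also counted in 3 classes of transcript length, beside 6.99% rising and 4.72% falling among all tested. Of the shortest, 277 of 4982 rose (5.56%) and 162 fell (3.25%) at 10 h, of the middle class 435 of 4985 rose (8.73%) and 255 fell (5.12%), and of the longest 332 of 4976 rose (6.67%) and 288 fell (5.79%). The median log2 changes were 0.0, -0.01 and -0.07. The library slopes on length that move with 10 h replicate 8 and 5 h replicates 6 and 7 stand beside these values, and their part in them was not tested.

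The spread between rats was read from each group. The median SD of log2 CPM over all tested transcripts was 0.375 in 10 h and 0.378 in 5 h acetaminophen livers, and 0.258 in 10 h and 0.379 in 5 h vehicle livers. Without libraries 28, 29, 30 and 32 it was 0.305 at 10 h and 0.319 at 5 h with acetaminophen, and 0.258 at 10 h and 0.284 at 5 h with vehicle.

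Kidney-enriched transcripts are scarce in liver: 718 of 1764 passed the filter, of which 27 rose (3.76%) and 25 fell (3.48%) at 10 h with acetaminophen, beside 6.99% and 4.72% of all transcripts tested. The filter keeps members with enough reads in a group, so these counts are a description.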
